A study of Ovis aries with 7 samples.

Results

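POMC, CRHR1 and CRHBP, 3 genes of the neuroendocrine stress axis, were measured in the hypothalamus of 7 late-gestation sheep fetuses. They were read by 5 of the 15008 distinct probes of a 1-colour Agilent sheep array and are 3 of the 847 genes named here. The probes were found by the RefSeq accession, gene name or description in the array files, which call CRHR1 CRF1 and CRHBP CRF-BP, and every such probe is described below. In the hypoxia group (n = 3) the ewe's ventilation was made hypoxic for 30 min and normal again for 30 min. In the control group (n = 4) the fetuses were of matched age and normoxic throughout. All fetuses carried chronic catheters, and tissue was taken 60 min after hypoxia began, with 1 array per fetus. The 3 hypoxia arrays lay on slide 1, control replicates 1 and 2 on slide 2, and control replicates 3 and 4 on slide 3, so hypoxia cannot be told apart from slide 1.

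The stress axis runs from the hypothalamus through the pituitary to the adrenal cortex. CRH from paraventricular neurons acts on CRHR1, a receptor coupled to cAMP, and CRHBP is a secreted protein that binds CRH and urocortin and keeps them from the receptor. POMC is the precursor of ACTH, which the anterior pituitary releases and which drives cortisol secretion by the adrenal. In the hypothalamus POMC is made by arcuate neurons, which cleave it to α-MSH and β-endorphin and are known for their part in feeding and opioid signalling. In late gestation the fetal axis responds to low oxygen and matures towards birth.

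The 5 probes show which stretch of each transcript the values come from. POMC and CRHBP each had a pair of 60-base probes shifted by 1 base, which share 59 bases. CRHR1 had a single probe printed in 5 spots per array. The sequences below are those in the array files, 5′ to 3′, and the capitals mark the stop codon that ends the coding sequence.
POMC, first probe (A_70_P039552): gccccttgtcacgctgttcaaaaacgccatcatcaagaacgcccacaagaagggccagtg
POMC, second probe (A_70_P039551): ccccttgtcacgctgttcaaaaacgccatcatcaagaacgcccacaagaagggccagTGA
CRHBP, first probe (A_70_P039672): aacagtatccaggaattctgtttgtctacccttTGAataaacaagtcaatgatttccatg
CRHBP, second probe (A_70_P039671): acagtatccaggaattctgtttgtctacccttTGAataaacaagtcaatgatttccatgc
CRHR1 (A_70_P029981): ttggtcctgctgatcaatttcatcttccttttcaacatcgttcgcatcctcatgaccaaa
Both POMC probes lie in the last codons, which encode the end of β-endorphin, and the second probe closes on the stop codon. Both CRHBP probes cross the stop codon, with 24 bases of untranslated sequence after it in the first probe and 25 in the second. The CRHR1 probe is coding and covers the fifth membrane helix and the start of the third intracellular loop of the receptor.

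Levels are log2 processed signals relative to the 75th percentile of the same array, so 0 is the brightness of that percentile. It lay between 2024 and 2908 on the 7 arrays, and any 2 arrays correlated at 0.978 to 0.990 over the tested probes. Of 23 hypothalamic marker genes, 13 had a probe, and 12 of them were well above background on all 7 arrays. NR5A1, a gene of ventromedial neurons, was so on 4 arrays. Lists of neuronal, cortical, thalamic and oligodendrocyte markers had 0 genes named here. All 5 probes of the stress axis genes were well above background on all 7 arrays. In limma, 0 of these 5 probes passed an adjusted p of 0.05, against 0.0157% of the 12711 tested probes, and 1 of 5, that of CRHR1, had an unadjusted p under 0.05, against 15.7% of them. The CRHR1 difference was positive, and 8.75% of the tested probes had both an unadjusted p under 0.05 and a higher mean in hypoxia. In 0 of the 5 did the hypoxia values all lie on one side of the control values, as they did in 16.2% of the tested probes.

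**Figure D1:**
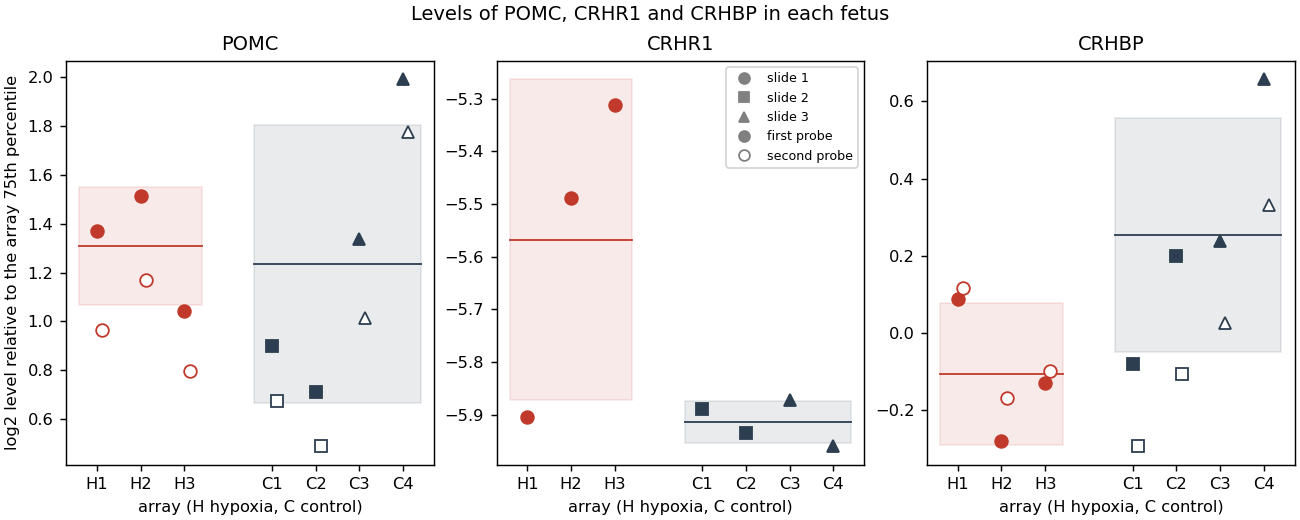
Log2 levels relative to the array 75th percentile in each of the 3 hypoxia (H) and 4 control (C) arrays, with symbols by slide, filled for the first probe of a gene and open for the second. Lines and bands are the group mean and SD of the first probe. Hypoxia and control overlap in each panel, POMC is highest on control replicate 4, and CRHR1 is above every control on hypoxia replicates 2 and 3 only.

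POMC did not differ between the groups beyond the spread of the arrays. Its first probe read 1.37, 1.52 and 1.04 in the 3 hypoxia fetuses, against 0.90, 0.71, 1.34 and 1.99 in the 4 control fetuses. The hypoxia values all lay inside the control range, which was the wider of the ranges, with control replicate 2 lowest and control replicate 4 highest. The mean level was 1.31 ± 0.24 in hypoxia (SD, n = 3) and 1.23 ± 0.57 in control (SD, n = 4). The log2 difference was 0.08 (SE 0.30, 95% confidence interval -0.63 to 0.78), with an adjusted p = 0.925 in limma. The interval spans a fold of 0.645 to 1.72. In this dissected tissue the number of POMC neurons and the POMC RNA in each neuron could not be told apart.

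The second POMC probe gave the same order of arrays within each group. It read 0.96, 1.17 and 0.80 in hypoxia, against 0.67, 0.49, 1.01 and 1.78 in control. Its log2 difference was -0.01 (SE 0.30, adjusted p = 0.989 in limma), the opposite sign to the first probe at a size far inside the standard error of either. On each array the first probe exceeded the second by a similar amount, 0.25 to 0.41 in hypoxia and 0.22 to 0.33 in control. Both probes, each with its own spot, thus carried the same spread of POMC between fetuses.

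The sign of the POMC difference turned on which control slide was used. Controls on slide 2 averaged 0.80 and those on slide 3 averaged 1.66, with the hypoxia mean of 1.31 in between. Each of these slides held 2 control fetuses, so slide and fetus cannot be told apart. POMC differed by 0.51 against slide 2 alone, by -0.36 against slide 3 alone and by 0.33 without control replicate 4. It was -0.03 without hypoxia replicate 2, -0.04 without control replicate 1 and -0.10 without control replicate 2. The SD of POMC over the 7 arrays was 0.428, more than that of 82.4% of the tested probes, whose median SD was 0.224. The spread of POMC between fetuses was wide for this array and was wider among the controls.

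Of the named genes, ISL1 had the pattern over the 7 arrays most like that of POMC. ISL1 encodes a homeodomain transcription factor of arcuate neurons that in mice is needed for Pomc expression. Likeness was the root mean square difference between the levels of 2 genes, each centred on its own mean over the 7 arrays, across 742 other tested genes. It was 0.170 for ISL1, 0.398 of the SD of POMC. It was 0.192 for BMP6, a bone morphogenetic protein, and 0.206 for TAC1, the precursor of substance P. NPY, the neuropeptide Y gene of the neighbouring arcuate neurons, was next with 0.218. That was 0.510 of the SD of POMC, so NPY missed the limit of 0.5 used to name genes by likeness. All these values share the same 7 arrays and the same scaling.

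**Figure D2:**
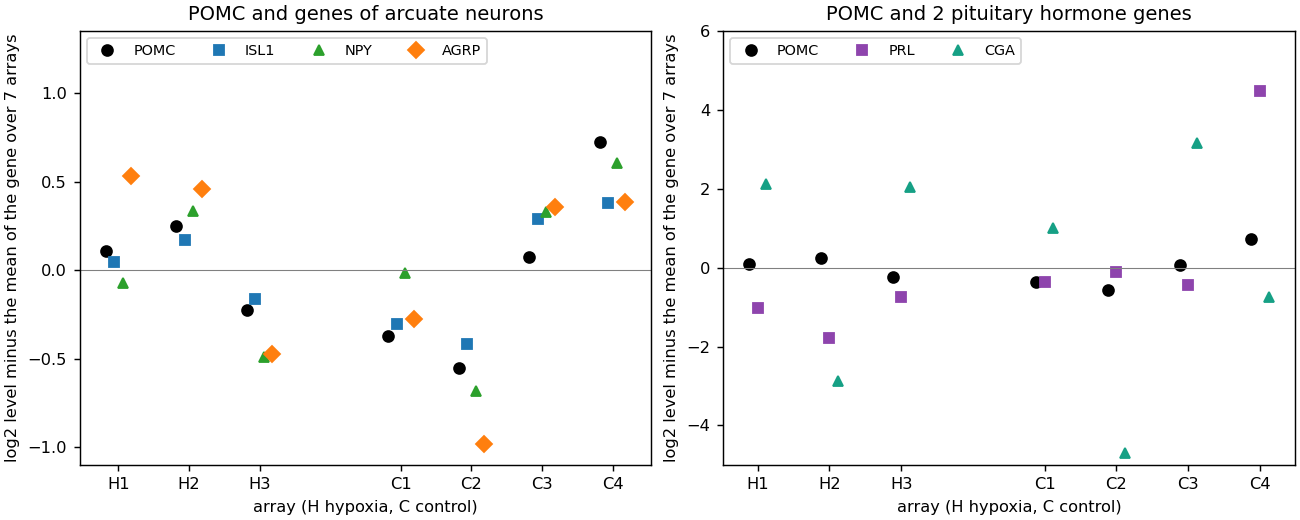
Log2 level of each gene minus its own mean over the 7 arrays, for POMC with ISL1, NPY and AGRP on the left and for POMC with PRL and CGA on the right, in 3 hypoxia (H) and 4 control (C) arrays. ISL1 stays close to POMC on most arrays, with the largest gap on control replicate 4, where PRL is also far above its level elsewhere. CGA is lowest on control replicate 2 and hypoxia replicate 2, and AGRP is highest on hypoxia replicate 1.

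ISL1 and NPY ranked high because they followed POMC over these arrays, so their match to it below is a description of that choice. ISL1 read -1.71, -1.59 and -1.92 in hypoxia, against -2.06, -2.18, -1.47 and -1.38 in control, with a log2 difference of 0.03 (SE 0.22). NPY read 1.45, 1.86 and 1.03 in hypoxia, against 1.51, 0.84, 1.85 and 2.13 in control, with one of -0.13 (SE 0.33). For both, control replicate 4 was highest and control replicate 2 lowest, as for POMC. AGRP, plotted with them, read -0.38, -0.46 and -1.39 in hypoxia, against -1.19, -1.90, -0.56 and -0.53 in control. It was likewise lowest on control replicate 2 but highest on hypoxia replicate 1. POMC minus ISL1, with each gene centred, was 0.06, 0.08 and -0.06 in hypoxia, against -0.07, -0.14, -0.22 and 0.34 in control. Over the 7 arrays the SD of POMC minus the other gene was 0.184 for ISL1, 0.235 for NPY and 0.336 for AGRP.

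POMC is also the main product of pituitary corticotrophs and melanotrophs, so the levels of pituitary markers stand beside it. Of 15 pituitary markers other than POMC, 11 had a probe, and 7, 6 and 7 of them were well above background on the hypoxia arrays, against 7, 5, 7 and 9 on the control arrays. Their summed signal, in units of the array 75th percentile, was 7.24, 6.78 and 7.40 in hypoxia, against 5.37, 4.21, 8.07 and 7.99 in control. LHB, the β subunit of luteinizing hormone, made up most of that sum through 1 probe, at 1.93 to 2.69 over the 7 arrays, while its other probe stood at -4.92 to -3.93. Without LHB the sums were 1.80, 0.33 and 1.66 in hypoxia, against 1.05, 0.41, 3.15 and 3.03 in control. Different genes made up most of them, CGA on control replicate 3 (level 1.39) and PRL on control replicate 4 (1.13). CGA also made up most of the sum on hypoxia replicates 1 and 3 and control replicate 1. The lowest sum with LHB was that of control replicate 2, where POMC was lowest, and without LHB that of hypoxia replicate 2, where POMC was second highest.

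Control replicate 4, the array with the highest POMC, also had pituitary hormone genes at levels far above those of the other arrays. PRL, the prolactin gene, stood at -4.38, -5.14 and -4.11 in hypoxia, against -3.72, -3.46, -3.80 and 1.13 in control. GH, the growth hormone gene, was well above background on control replicate 4 alone, at -1.82. OXT, made by magnocellular neurons, was lowest on that array, at -1.12, against 1.01 to 2.44 in hypoxia and 1.84 to 2.57 in the other controls. The hypothalamic markers did not move together there. GNRH1 was also lowest on that array, at -6.20, whereas NPY (2.13), GAL (0.14), NPVF (0.41) and ISL1 (-1.38) were highest on it. CGA, the α subunit of pituitary glycoprotein hormones, did not follow PRL: it was 0.35, -4.63 and 0.28 in hypoxia, against -0.74, -6.47, 1.39 and -2.50 in control. POU1F1, the transcription factor of PRL and GH cells, was well above background on 0 of 7 arrays. The part of pituitary RNA in the POMC level was not tested. The choice of these marker genes was made with their values in view.

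Of the 3 genes, CRHR1 alone had an unadjusted p under 0.05 in limma as reported, and it did not pass after adjustment. It read -5.90, -5.49 and -5.31 in hypoxia, against -5.89, -5.93, -5.87 and -5.96 in control. Hypoxia replicates 2 and 3 lay above all controls, whereas hypoxia replicate 1 lay inside the narrow control range. The mean was -5.57 ± 0.30 in hypoxia (SD, n = 3) and -5.91 ± 0.04 in control (SD, n = 4). The log2 difference was 0.35 (SE 0.15, 95% confidence interval 0.00048 to 0.69), a fold of 1.27. In limma the p was 0.0498 before and 0.319 after Benjamini-Hochberg adjustment over all tested probes. The unadjusted p was under 0.05 in 5 of 23 other settings and ran from 0.0038 to 0.614 over them in limma and the ordinary model.

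**Figure D3:**
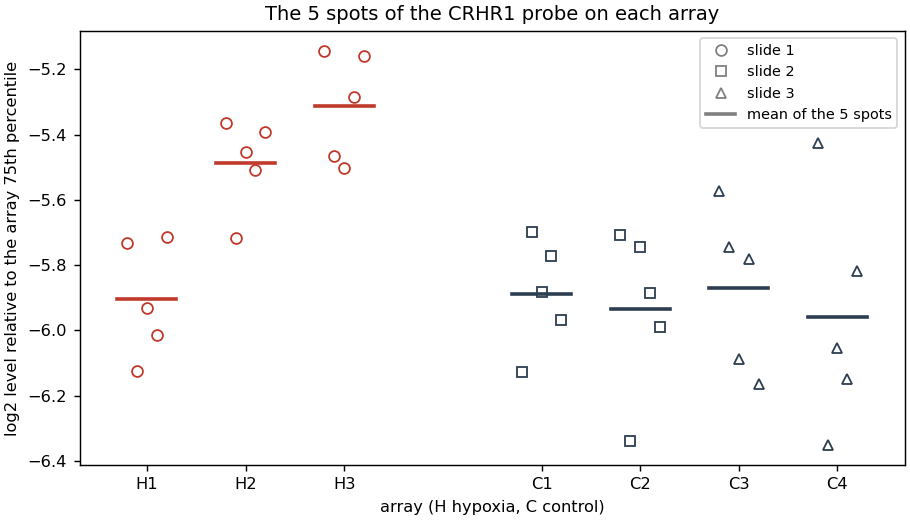
Log2 level of each of the 5 spots of the CRHR1 probe, relative to the array 75th percentile, in 3 hypoxia (H) and 4 control (C) arrays, with the mean of the 5 spots as a bar. Spots of 1 array scatter about as widely as the array means differ, with the means of hypoxia replicates 2 and 3 at -5.49 and -5.31.

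The 5 spots of CRHR1 on each array give the error of its level within an array. The SD of the 5 spots was 0.227, as a root mean square over the 7 arrays, from which a mean of 5 spots would have an SD of 0.101. The 3 hypoxia means varied by more than that, with an SD of 0.304, and the 4 control means by less, with an SD of 0.0405. Taken spot by spot, the difference between groups was 0.26 to 0.31 in 4 of the spot positions and 0.56 in the other. Only in that last position did every hypoxia value lie above every control value. The spots are technical repeats of the same 7 fetuses and add no replicates.

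The CRHR1 signal was close to background. Its median processed signal was 42.6, 50.2 and 60.3 in hypoxia, against 35.0, 34.2, 52.8 and 35.7 in control. Before scaling, control replicate 3 thus lay between hypoxia replicates 2 and 3, and that array had the highest 75th percentile, 2908. The spots were 1.96 to 2.55 times as bright as the local background in hypoxia and 1.59 to 2.69 times in control. With normexp background correction and the same scaling the log2 difference was 0.19, and with normexp and quantile normalization it was 0.05. It was 0.51 without hypoxia replicate 1 and 0.22 without hypoxia replicate 3.

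The mean level of CRHR1 was nearly the same on the control slides, unlike that of POMC. With 2 fetuses on each, slide and fetus cannot be told apart for either gene. The 2 controls of slide 2 averaged -5.91 and those of slide 3 averaged -5.92. CRHR1 differed by 0.34 against slide 2 alone and 0.35 against slide 3 alone, with 3 hypoxia arrays on slide 1 in both. PAG6, a pregnancy-associated glycoprotein of a family with many similar members, was among the genes with the most similar patterns over the 7 arrays, with a root mean square difference of 0.121. TGFB2, a transforming growth factor, had one of 0.127. The SD of CRHR1 was 0.257, more than that of 58.7% of tested probes.

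CRHBP gave a negative difference at both probes, of unequal size. Its first probe read 0.09, -0.28 and -0.13 in hypoxia, against -0.08, 0.20, 0.24 and 0.66 in control. Hypoxia replicates 2 and 3 lay below all controls, and hypoxia replicate 1 lay above control replicate 1. The mean was -0.11 ± 0.19 in hypoxia (SD, n = 3) and 0.25 ± 0.30 in control (SD, n = 4). The log2 difference was -0.36 (SE 0.18, 95% confidence interval -0.79 to 0.07), 1.28-fold lower in hypoxia at the estimate, with an adjusted p = 0.381 in limma. It was -0.17 against slide 2 alone, -0.56 against slide 3 alone and -0.23 without control replicate 4. The unadjusted p of limma, 0.0891 as reported, was under 0.05 in 4 of 23 other settings, both normexp settings among them.

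The second CRHBP probe, which differs from the first by 1 base at each end, gave a log2 difference of -0.04 (SE 0.16, adjusted p = 0.927 in limma). That probe read 0.12, -0.17 and -0.10 in hypoxia, against -0.29, -0.11, 0.03 and 0.33 in control. The hypoxia values lay inside the control range. The probes differed in a way that followed the groups. On the same array the first probe minus the second was -0.03, -0.11 and -0.03 in hypoxia, against 0.21, 0.31, 0.21 and 0.33 in control.

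The gap of 0.321 between the log2 differences of the CRHBP probes was large for probes that overlap so far. Over 196 pairs of tested probes sharing 59 of 60 bases, the median gap was 0.0801 and the 95th percentile 0.378. A gap wider than that of CRHBP occurred in 8.16% of these pairs, and one wider than that of POMC, 0.0865, in 46.4%. The within-array probe difference lay apart between the groups in 11.7% of the pairs, as it did for CRHBP. Each CRHBP probe has 1 spot per array, so the error of a single spot is not known for it. CRHBP thus has a value that ranges from -0.36 to -0.04 with the probe read.

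CALML4, a calmodulin-like gene, was most like the first CRHBP probe over the 7 arrays, with a root mean square difference of 0.106. The ribosomal protein genes RPL4 and RPS12 followed with 0.140 and 0.151. The SD of that probe was 0.308, more than that of 69.0% of tested probes. The SD of the second probe was 0.207, more than that of 44.5%.

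The receptor and its binding protein were also set against each other on each array. CRHR1 minus CRHBP, each centred on its own mean, was -0.13, 0.66 and 0.68 in hypoxia, against 0.06, -0.27, -0.25 and -0.75 in control. The groups overlapped through hypoxia replicate 1 and control replicate 1. The mean was 0.40 ± 0.46 in hypoxia (SD, n = 3) and -0.30 ± 0.33 in control (SD, n = 4), a difference of 0.71 with the first CRHBP probe, which was 0.39 with the second. This ratio was formed after both log2 differences were seen and joins their opposite signs, so it was not tested.

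**Figure D4:**
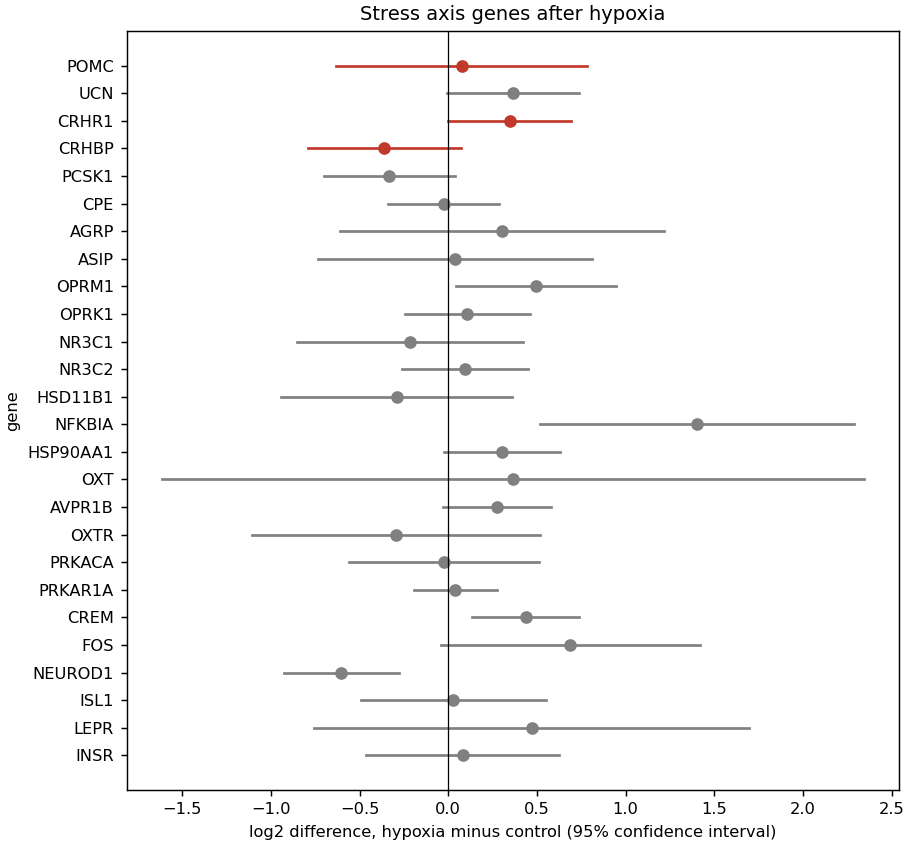
Log2 difference, hypoxia minus control, with its 95% confidence interval from limma, for POMC, CRHR1 and CRHBP (red, first probe) and the other tested genes of 8 stress axis lists (grey). Most intervals include 0, those of CRHR1 (lower end 0.00048), OPRM1, NFKBIA, CREM and NEUROD1 do not, and 0 of these genes passed the adjusted threshold.

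Of the other ligands and receptors of the CRH family, only the urocortin gene UCN was analysed here, and CRH itself was not analysed here. UCN, a ligand of both CRH receptors that CRHBP also binds, read -2.73, -2.14 and -2.69 in hypoxia, against -2.81, -2.93, -2.97 and -2.83 in control. All hypoxia values lay above all control values, as in 8.76% of the tested probes. The log2 difference was 0.37 (SE 0.16, adjusted p = 0.327 in limma) and rested largely on hypoxia replicate 2, without which it was 0.18. Its other probe gave 0.26 with overlapping groups. Over the 3 measured genes of this family of 7, which are UCN, CRHR1 and CRHBP, 2 were higher and 1 lower in hypoxia, and 0 passed the threshold. Their median was the CRHR1 value itself, and the median over all tested probes was 0.03. Without hypoxia replicates 2 and 3 in turn the family median was 0.18 and 0.22.

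Genes that process POMC or act on its products had 0 calls. Of 12 genes of processing and the secretory granule, 2 were tested, with a median of -0.18, which was -0.04 without hypoxia replicate 2. PCSK1, the convertase that releases ACTH from POMC, differed by -0.33 on the log2 scale (SE 0.16, adjusted p = 0.353 in limma). CPE, which trims the peptide ends, differed by -0.03 (SE 0.13). AGRP, the antagonist of α-MSH at melanocortin receptors, had one of 0.30 (SE 0.39), which was 0.80 against slide 2 alone and -0.20 against slide 3 alone. With ASIP it made up the 2 tested genes of a melanocortin list of 9. Its median of 0.17 was 0.54 against slide 2 alone and -0.20 against slide 3 alone, and 0.0020 to 0.41 without 1 array. The receptors MC2R and MC5R were not well above background on any array.

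Opioid genes were tested for 2 of 7 genes, with a median of 0.30 (0.18 without control replicate 1) and 0 calls. OPRM1, a receptor for β-endorphin, read -3.89, -3.82 and -3.49 in hypoxia, against -4.62, -3.86, -4.27 and -4.17 in control. Only control replicate 2 reached into the hypoxia range. The log2 difference was 0.50 (SE 0.19, adjusted p = 0.289 in limma), and its other probe gave 0.13. PENK, the enkephalin precursor, was not well above background on any array at the probe named for it.

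Corticosteroid sensing was tested for 5 of 15 genes, with 3 higher and 2 lower in hypoxia, 0 calls and a median of 0.09, whose sign turned in 4 of 23 settings. The glucocorticoid receptor gene NR3C1, through which cortisol restrains the axis, had a log2 difference of -0.22 (SE 0.27), which was -0.61 against slide 2 alone and 0.18 against slide 3 alone. The mineralocorticoid receptor gene NR3C2 had one of 0.09 (SE 0.15). HSD11B1, which regenerates cortisol in the cell, had one of -0.29 (SE 0.28), and HSD11B2, which inactivates it, was well above background on 1 hypoxia and 1 control array. NFKBIA, the NF-κB inhibitor gene and a glucocorticoid target, read 1.78, 2.76 and 0.94 in hypoxia, against 0.37, 0.67, 0.43 and 0.24 in control. All hypoxia values lay above all controls, with a log2 difference of 1.40 (SE 0.38, adjusted p = 0.197 in limma). NFKBIA is named because of these values.

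Genes downstream of CRH receptors and upstream of POMC likewise had 0 calls. Of 27 genes of cAMP signalling, 4 were tested, 3 higher and 1 lower in hypoxia, with a median of 0.24. CREM, whose products include a cAMP-induced repressor, read -3.48, -3.55 and -3.63 in hypoxia, against -4.23, -3.90, -4.06 and -3.79 in control. These groups did not overlap, with a log2 difference of 0.44 (SE 0.13, adjusted p = 0.215 in limma). Another CREM probe gave 0.28 with overlapping groups, and the remaining ones, well above background on 0 and 2 arrays, were not tested. Of 16 regulators of POMC transcription, 5 were tested, 3 higher and 2 lower, with a median of 0.03 whose sign turned in 12 of 23 settings. NEUROD1, which drives Pomc in mouse corticotrophs, read -3.28, -2.87 and -3.06 in hypoxia, against -2.27, -2.62, -2.55 and -2.43 in control. All hypoxia values lay below all controls, with a log2 difference of -0.60 (SE 0.14, adjusted p = 0.160 in limma) and -0.64 at its other probe. In the vasopressin and oxytocin system 3 of 6 genes were tested, 2 higher and 1 lower, with 0 calls. The median of 0.28 was the value of AVPR1B, a vasopressin receptor, and leaving out control replicate 4 made it -0.13, while leaving out hypoxia replicate 1 made it -0.03. The other AVPR1B probe gave -0.42, with every hypoxia value below every control (adjusted p = 0.266 in limma). OXT had a log2 difference of 0.36 (SE 0.85), which was -0.44 without control replicate 4 and -0.55 against slide 2 alone. AVP was not analysed here.

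Markers of other cells stand beside these differences. All 6 tested astrocyte markers were higher in hypoxia, with 0 calls and a median of 0.48, and their summed signal was 60.4, 53.7 and 64.3 in hypoxia, against 38.9, 57.8, 51.6 and 51.8 in control. The sums overlapped through control replicate 2. AQP4 alone made up most of each sum, with a log2 difference of 0.25 (SE 0.15). Of 4 endothelial markers 1 was higher and 3 lower, with 0 calls and a median of -0.38, which was -0.16 without hypoxia replicate 1. The higher one was FLT1, at 0.56, whose other probes gave -0.53 and -0.28. Endothelial sums were 0.656 to 1.00 in hypoxia and 0.870 to 1.26 in control. PECAM1 made up most of each, with a log2 difference of -0.26 (SE 0.21). Of 3 red cell markers 1 was higher and 2 lower, with 0 calls and a median of -0.33, whose sign turned in 5 of 23 settings and which was 0.04 without control replicate 4. Red cell sums were 12.9, 17.5 and 13.2 in hypoxia, against 7.79, 4.14, 5.71 and 37.0 in control. All 3 hypoxia sums lay above those of control replicates 1 to 3 and below that of control replicate 4. HBB, the marker that was higher, made up nearly all of these sums through 1 probe. Its other probe did not keep that order, at 3.09, 3.49 and 1.43 in hypoxia, against 2.49, 1.61, -0.90 and 4.47 in control. The part of these cells in the values of CRHR1 and CRHBP was not tested.

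**Figure D5:**
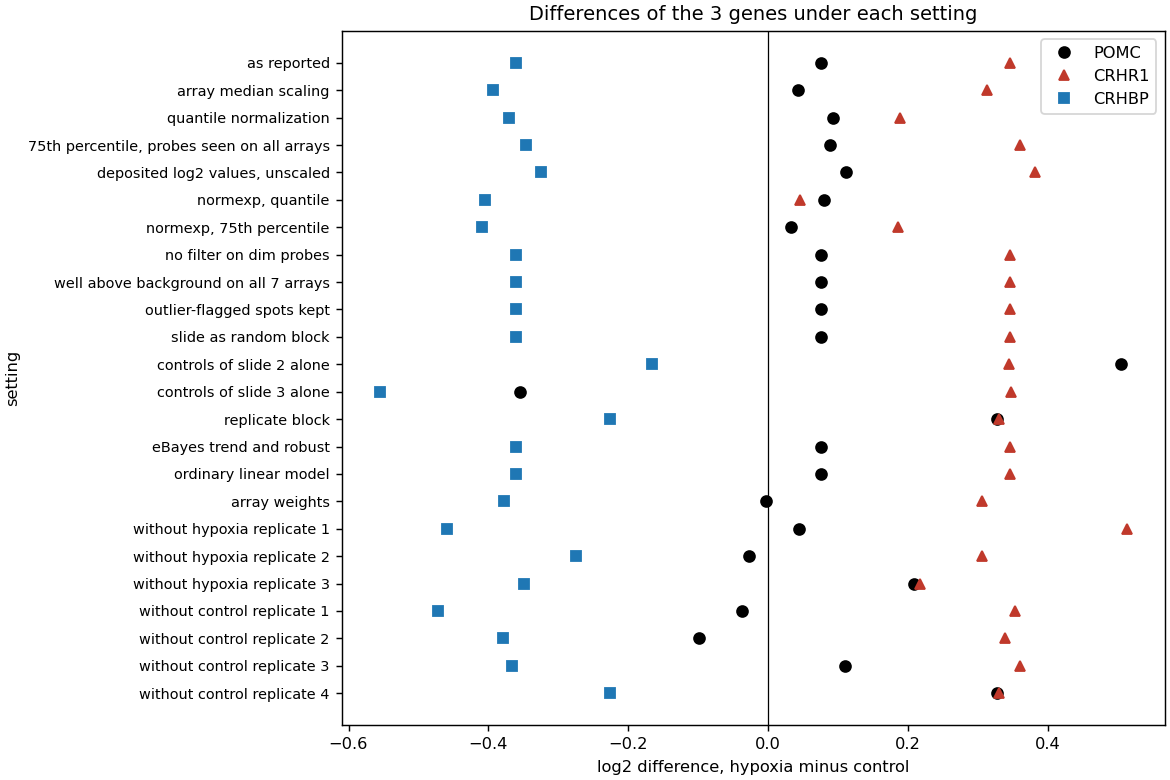
Log2 difference, hypoxia minus control, of POMC, CRHR1 and CRHBP (first probes) as reported and under 23 other settings of the processing or the arrays used. CRHR1 stays above 0 and CRHBP below 0 in all of them, at 0.05 to 0.51 and -0.56 to -0.17, while POMC lies on both sides, from -0.36 to 0.51. The other filters, variance models and the slide block could not move these differences.

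Across 23 other settings, none of the 3 genes passed the adjusted threshold. CRHR1 kept a positive difference in 23 of 23, with a lowest adjusted p = 0.283 in limma. CRHBP kept a negative difference at its first probe in 23 of 23, with a lowest adjusted p = 0.290, and its second probe turned positive in 4. POMC turned negative at its first probe in 5 settings, with a lowest adjusted p = 0.254. Most settings refit the same 7 arrays, so a shared sign among them is not independent evidence. The other filters, the variance models and the slide block could not move these differences, and keeping outlier spots did not. The replicate block repeated the differences found without control replicate 4.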

How the data were processed

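Per the labels' protocols, hypothalamic RNA was labelled with Cy3. Per the file headers, the deposited spot intensities come from Agilent Feature Extraction 10.1.1.1, whose processed intensity has a fitted background subtracted and spatial trends removed. The values of the deposited table are the log2 of that intensity and are not scaled between arrays. Values of dim probes thus depend on the background step.

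To make levels, the processed intensity was put on a log2 scale and the 75th percentile of an array's non-control spots was subtracted. Outlier spots were dropped, and repeated spots were averaged per probe. The test covered the 12711 of 15008 probes that were well above background on 3 or more of the 7 arrays. It used limma 3.58.1 in R 4.3.3 (lmFit and eBayes, 2-sided), with Benjamini-Hochberg adjustment over those probes at 0.05, and was tested on simulated data. The first probe of a gene is the one with the highest mean level. Probes were named from RefSeq accessions (703), symbols (497), gene IDs (125), synonyms (20) or descriptions (19). The text names genes with roles directly beside the 3 genes in the 8 pathway lists, marker genes where an array stood apart, and the 3 genes most alike over the arrays where the likeness was under 0.5 of the SD, of which 1 is not reported here. The genes, lists and tests were chosen with earlier results of these data known. Alternatives were other scalings, normexp background correction with an offset of 50, other filters and variance models, array weights, slides, a replicate block and leaving out each array. The number of arrays limits the precision. No genome build is named in the files, so no coordinates are given.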

Additional observations from a re-analysis of the deposited data

Results flagged for a closer look

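Looking over 58 sets of 4 control values found 2 in which a single value lay far from the rest, where about 1 set in 20 would be picked out by chance. PRL stood at 1.13 on control replicate 4, the array with the highest POMC, while the remaining controls ranged from -3.80 to -3.46. NR5A1, a marker of ventromedial hypothalamic neurons, stood at -8.60 on control replicate 1, while the remaining controls ranged from -6.75 to -6.59. It was as low on hypoxia replicate 2, at -8.69, and was well above background on 4 of the 7 arrays, control replicate 1 and hypoxia replicate 2 not among them.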

How the results depend on the processing

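The first probe of POMC reversed against the controls of slide 3 alone (-0.36), with array weights (-0.0029), without hypoxia replicate 2 (-0.03) and without control replicates 1 (-0.04) and 2 (-0.10), and ran from -0.10 to 0.33 over the fits without 1 array. Its second probe reversed with quantile normalization (0.0063), with the 75th percentile of only the probes detected on all arrays (0.0028), with the deposited values (0.025) and against slide 2 alone (0.40), and ran from -0.18 to 0.25 without 1 array. The second CRHBP probe reversed against slide 2 alone (0.15) and ran from -0.13 to 0.074 without 1 array. Without 1 array, CRHR1 ran from 0.22 to 0.51 and the first CRHBP probe from -0.47 to -0.23. Against 2 probes past the adjusted threshold as reported, there were 0 with quantile normalization, with the 75th percentile of only the probes detected on all arrays, with no filter and with an ordinary linear model, 10 with the deposited values, 35 with normexp and quantile normalization, 10 with normexp and the 75th percentile, 25 with probes seen on all arrays, 232 against slide 2 alone, 4 against slide 3 alone, 57 with a trended and robust prior, 4 with array weights and 0 to 6 without 1 array. The counts of 0 had 1808 to 2006 probes at an unadjusted p under 0.05 in the 4 settings that used all arrays and no block. The cause of these changes was not tested.

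Both groups have replicates 1 to 3, and the labels do not say that a number marks a pair of fetuses. Same-numbered arrays correlated at 0.121, 0.0876 and 0.107 in their deviations from the group means, and at 0.106, 0.119 and 0.109 when the control mean left out control replicate 4. In the second form all 3 were above 0.1 and each hypoxia array correlated best with its own number. Deviations from a mean of 3 arrays cancel out, so the correlations of an array with the 3 controls are not independent. The match of numbers is thus at most a weak hint from the data, and not the design. The replicate block, in which control replicate 4 has no partner, gave 0 probes past the threshold, a POMC difference of 0.33 (0.25 at the second probe), a CRHR1 difference of 0.33 and a CRHBP difference of -0.23 (0.074 at the second probe). These differences equal those without control replicate 4, since an array with no partner adds nothing to them. Slide as a random block had a correlation of -0.03. All hypoxia arrays lay on slide 1 and the controls were split evenly over slides 2 and 3. This block thus could not move the 3 differences, and their sameness is no check on slide. CRHR1 is limited by its signal over background.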
